A study of Mus musculus with 18 samples.

Results

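A set of 6 mouse microRNAs (miRNAs) known to be made without the nuclease Drosha was followed along the derivation of embryonic stem cells (ESCs): mmu-miR-877-5p, mmu-miR-877-3p, mmu-miR-320-3p, mmu-miR-484, mmu-miR-702-3p and mmu-miR-1224-5p. They were chosen by name, from what is known of their biogenesis, but with earlier results of these data known. They make up 6 of the 1390 mature miRNAs in the deposited table. Most miRNAs are cut out of a long primary transcript by Drosha with its partner Dgcr8, exported, and cut again by Dicer. Mirtrons skip the first cut: a short intron is spliced out, debranched and folded into a hairpin that Dicer can use, which is how miR-877, miR-702 and miR-1224 are made. miR-320 and miR-484 come from short hairpins whose 5′ end is the capped start of their own transcript, and both are known to persist in mouse ESCs that lack Dgcr8. No library here came from cells without Drosha or Dgcr8, so the route by which each miRNA was made was not tested.

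Small RNA was sequenced from cells of the NMRI mouse strain. The inner cell mass (ICM), the cluster of blastocyst cells from which ESCs are derived, was freed from E3.5 blastocysts by immunosurgery and plated on gelatin in medium called R2i, to which leukemia inhibitory factor (LIF) was added. R2i blocks the kinase MEK with PD0325901 and the type I receptors for activin and TGF-beta with SB431542. There were 9 groups of 2 libraries, 18 in all: ESCs described as P2, P4 and P15, outgrowths of the ICM after 0.5, 1, 2, 3 or 5 days in culture, and the ICM as isolated (day 0). The ICM was collected straight after isolation, while outgrowths and ESCs had grown in R2i with LIF. Titles of the ESC libraries give other passages than their descriptions (4, 15 and 2 for P2, P4 and P15), so the descriptions name the groups here and no passage order was read. The labels do not say whether replicates are separate embryos or cultures, so p-values measure only the spread between these libraries.

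Mature sequences of 5 of the 6 miRNAs were found in RefSeq (GRCm38.p6), miR-320-3p being named only. They are shown because the seed, bases 2 to 8 from the 5′ end and written in capitals, sets which messages a miRNA can pair with.
miR-877-5p: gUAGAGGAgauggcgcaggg
miR-877-3p: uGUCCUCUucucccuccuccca
miR-702-3p: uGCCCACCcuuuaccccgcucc
miR-1224-5p: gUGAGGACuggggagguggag
miR-484: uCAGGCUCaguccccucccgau
All 5 seeds differ from one another, and none was found in any other of the 1679 mature mouse entries in the RefSeq table. These 5 miRNAs are therefore grouped by how they are known to be made and not by shared seeds. The seed of miR-320-3p was not compared.

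The splice origin can be read from the hairpins of miR-877 and miR-1224, shown with the annotated arms in capitals. Introns usually begin with GU and end with AG, and so do both hairpins.
Mir877: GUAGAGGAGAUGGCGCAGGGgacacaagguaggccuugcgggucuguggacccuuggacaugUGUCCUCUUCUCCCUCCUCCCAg
Mir1224: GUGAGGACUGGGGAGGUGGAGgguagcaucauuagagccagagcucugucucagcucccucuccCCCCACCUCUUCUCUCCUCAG
Mir877 (chr17:35960730-35960814, minus strand, GRCm38) spans exactly an 85-base intron of Abcf1 in the GENCODE vM21 annotation. miR-877-5p starts at the first base of that intron and miR-877-3p stops 1 base before its end. Mir1224 (chr16:20604452-20604536, plus strand) spans exactly an 85-base intron of Vwa5b2, and miR-1224-5p starts at the first intron base. Mir702 (chr5:136991433-136991541, plus strand) covers most of a 102-base intron of Plod3 but reaches 9 bases into the exon before it. Its 3p arm stops 2 bases before the intron ends.

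The other loci lie outside the introns of genes on their own strand. Mir320 (chr14:70443510-70443591, plus strand) is separated by 62 bases from the start of a Polr3d transcript, which runs away from it on the opposite strand. Mir484 (chr16:14159626-14159692, plus strand) overlaps an exon edge of 1 Marf1 transcript on the opposite strand. The 5 mature sequences are rich in G and C, at 59.1% to 68.2%, against a median of 52.2% (quartiles 45.5% and 60.0%) over all RefSeq entries. Both mirtron 5p arms begin with GU, as do 3.57% of all entries, and miR-877-3p is 90.9% pyrimidine, a share reached by 0.119% of all entries (median 50.0%).

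Values are normalized counts, deposited as whole numbers, with totals of 602238 to 1265117 per library. Depth differed by stage. Low values of the 10 libraries from day 0 to day 3 were evenly spaced and 1 read was worth 1.73 to 5.44 normalized counts, which gives an estimated 111000 to 370000 reads. The 8 libraries of day 5 and ESCs were deeper, with a spacing too fine to read after rounding. The lowest listed value in the shallow libraries stood for 5 reads, so a 0 in the shallowest of them stands for a value below 27.2 normalized counts. The tests were also made with all values below 27.2 raised to 27.2, called the common floor below. The miR-290 to miR-295 miRNAs, which mark the pluripotent cells of the ICM and ESCs, took 9.0% to 14.9% of normalized counts in ESCs, 6.45% to 14.5% in outgrowths and 15.7% to 17.8% in ICM.

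The 6 miRNAs together took 0.192% to 0.321% of normalized counts in ESC libraries, 0.613% to 1.2% in outgrowths, and 0.879% and 1.11% in ICM. All ESC libraries lay below all others in this summed share, an order that was not counted over other sets of miRNAs. The order was the same in summed normalized counts, at 1564 to 3651 in ESC libraries and 5500 or more in the others. In bulk samples, fewer cells that make a miRNA and less of it per cell cannot be told apart. miR-320-3p and miR-484 had the highest means over the 18 libraries, at 2030 and 1940 normalized counts, followed by miR-877-5p at 1200, miR-877-3p at 248, miR-702-3p at 139 and miR-1224-5p at 6.78. A limma test across all 9 groups called 5 of the 6 (adjusted p between 4.84e-08 and 0.00333), where 66.5% of the 811 miRNAs tested were called, and did not call miR-1224-5p (adjusted p = 0.678).

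**Figure D1:**
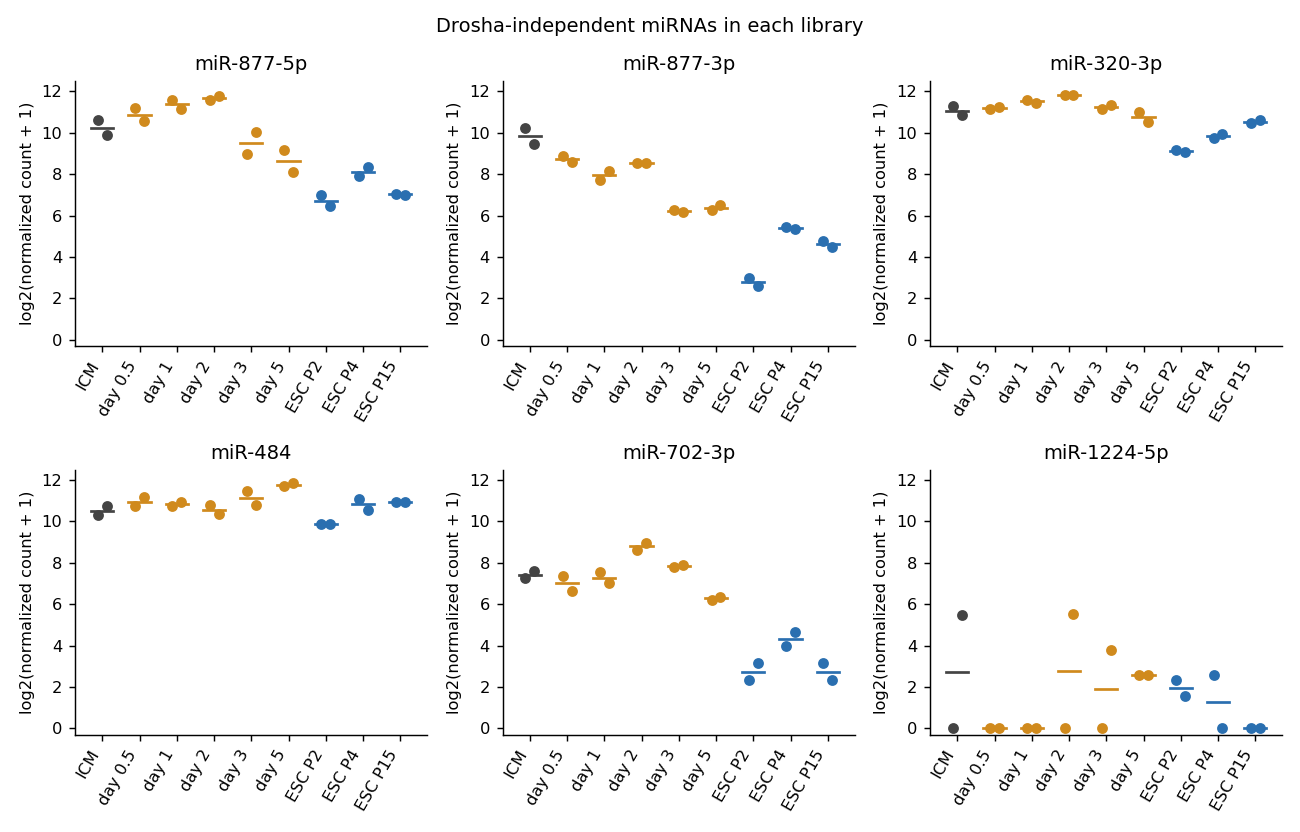
Level of each of the 6 miRNAs, as log2(normalized count + 1), in every library (points) and its group mean (bars), for ICM, outgrowths of days 0.5 to 5 and ESCs described as P2, P4 and P15. miR-877-5p, miR-320-3p and miR-702-3p are highest on day 2, miR-877-3p in ICM and miR-484 on day 5, and miR-1224-5p is at 0 in 10 of 18 libraries.

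The first comparison set ESCs (6 libraries) against the ICM they derive from (2 libraries). The levels of 4 of the 6 fell, namely miR-877-3p, miR-702-3p, miR-877-5p and miR-320-3p, and none rose. Of all 811 miRNAs tested, 23.7% fell in this comparison. The median log2 change was -2.3 over the 6 miRNAs and 0.01 over all miRNAs tested. A middle value behind that median was miR-1224-5p (-1.65, SE 1.62), which was too low to compare, and both arms of miR-877 were counted. At the common floor the median was -1.94 over the 6 and 0 over all miRNAs tested. Each of the 4 that fell had every ESC library below both ICM libraries, an order that 21.8% of all tested miRNAs showed.

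miR-877-3p, the arm that ends the Abcf1 intron, had the largest change of the 6. It averaged 23.5 ± 15.8 normalized counts in ESCs (SD, n = 6), against 963 ± 354 in ICM (SD, n = 2), a log2 change of -5.6 (SE 0.25, limma adjusted p = 7.2e-09). The change was -4.85 at the common floor, since 4 of its 6 ESC values lie below 27.2. miR-877-5p, from the other end of the same intron, averaged 171.8 ± 89.2 in ESCs, against 1249.5 ± 416 in ICM, a log2 change of -2.96 (SE 0.35, limma adjusted p = 2.13e-05), or 7.78-fold lower.

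miR-702-3p, the Plod3 mirtron product, averaged 10.5 ± 7.74 in ESCs, against 173.5 ± 30.4 in ICM. Its log2 change was -4.16 (SE 0.36, limma adjusted p = 1.81e-06) and was -2.62 at the common floor, where all 6 ESC values become 27.2. miR-320-3p, of the capped hairpin, averaged 985.8 ± 427 in ESCs, against 2178 ± 419 in ICM, 2.37-fold lower (log2 change -1.25, SE 0.14, limma adjusted p = 1.76e-05).

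miR-484, also of a capped hairpin, averaged 1584.8 ± 544 in ESCs, against 1492.5 ± 310 in ICM. Its log2 change of 0.02 (SE 0.21, limma adjusted p = 0.954) had a 95% interval of -0.45 to 0.49. Rescaling all libraries to one common total made it -0.69 and called as lower (adjusted p = 0.00238), a rescaling that also moved the median of all miRNAs tested to -0.44. miR-1224-5p was too low to compare, with 0 to 5 normalized counts in ESCs, against 43 (14 reads) in 1 ICM library and 0 in the other.

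The summed share of fibroblast and smooth muscle miRNAs (miR-143, miR-145a, miR-199a, miR-199b, miR-214 and miR-10b, 11 arms in the table) moved in a similar way. It was 0.253% to 0.385% of normalized counts in ESC libraries, 0.382% and 0.395% on day 5, 1.12% to 2.29% on days 0.5 to 3, and 1.32% and 1.4% in ICM. Between 4 and 9 of its 11 arms were above 0 in a library, and miR-145a-5p, miR-10b-3p, miR-199b-5p and miR-143-5p were at 0 in every library up to day 3. Up to day 3 most of the sum was miR-10b-5p, which had 220 to 2686 normalized counts in ESCs, against 6587 to 21292 on days 0.5 to 3 and 5955 and 7709 in ICM. miR-143-3p ran the other way, at 1628 to 2375 in ESCs, against 381 and 419 in ICM. miR-199a-3p and miR-199b-3p had the same range in each set of libraries (39 to 186 in ESCs, 310 and 767 in ICM). Both were summed, so the same reads may be counted more than once in this share. Blood miRNAs took 0.0641% to 0.233% in ESCs, against 0.363% and 0.453% in ICM, and endoderm and liver miRNAs 0.118% to 0.317%, against 0.308% and 0.313%. miR-302 and miR-367 of the primed epiblast took at least 0.468% in both ESC P2 libraries and 0.0138% to 0.0706% in P4 and P15, against 0.00448% and 0.00607% in ICM. The part of these shares in the changes of the 6 miRNAs was not tested, and neither was that of depth.

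**Figure D2:**
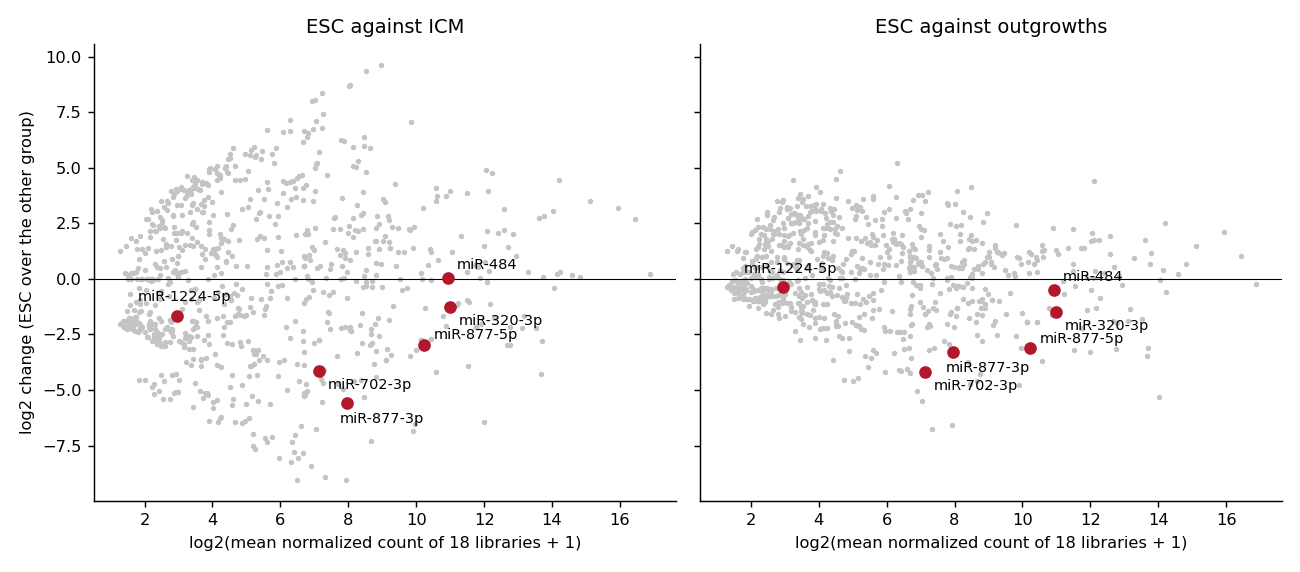
Log2 change in ESCs against ICM (left) and against outgrowths (right) of each tested miRNA, plotted against log2 of its mean normalized count over 18 libraries plus 1, with the 6 Drosha-independent miRNAs in red. miR-877-3p lies at -5.6 against ICM and miR-702-3p at -4.18 against outgrowths, while miR-484 lies at 0.02 against ICM.

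The course over time shows when each level changed. miR-877-5p had 1544 and 955 normalized counts in ICM, 2311 and 1535 on day 0.5, 3092 and 2284 on day 1, and 3029 and 3489 on day 2. It had 505 and 1056 on day 3, 574 and 278 on day 5, 125 and 87 in ESC P2, 239 and 321 in P4, and 133 and 126 in P15. Day 2 was highest, though its libraries overlapped those of day 1, and every library of days 3 and 5 lay below every library of days 0.5 to 2. Here and below, an order of groups given without a share was not counted over all miRNAs tested. The drop from the middle of the outgrowth was the only adjacent step called for miR-877-5p, at -2.15 on day 3 against day 2 (SE 0.42, limma adjusted p = 0.0151). In shallow libraries these values rest on 105 to 1334 estimated reads each.

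miR-877-3p had 1213 and 713 normalized counts in ICM, 464 and 386 on day 0.5, 207 and 288 on day 1, and 367 and 376 on day 2. It had 77 and 70 on day 3, 76 and 90 on day 5, 7 and 5 in ESC P2, 42 and 40 in P4, and 26 and 21 in P15. ICM was highest, and every ESC library lay below every earlier library, as did 2.59% of all tested miRNAs. It fell on day 0.5 against ICM (-1.13, SE 0.31, limma adjusted p = 0.034) and again on day 3 against day 2 (-2.32, SE 0.31, adjusted p = 0.00121). The day 0.5 call was lost without the first ICM replicate (-0.75, limma adjusted p = 0.183), either day 0.5 library (adjusted p 0.0585 and 0.166) or the second day 2 library (0.0505). It was also lost with no filter (0.0721), quantile normalization (0.0766) and array weights, which weight each library by its fit (0.928).

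miR-702-3p had 152 and 195 normalized counts in ICM, 165 and 99 on day 0.5, 188 and 129 on day 1, and 396 and 502 on day 2. It had 221 and 237 on day 3, 74 and 82 on day 5, 4 and 8 in ESC P2, 15 and 24 in P4, and 8 and 4 in P15. Day 2 stood above all other groups with no overlap. All ESC libraries lay below all earlier ones, an order that 2.59% of all tested miRNAs showed. The change on day 2 against day 1 was 1.51 (SE 0.44, limma adjusted p = 0.0527), and at the common floor the adjusted p was 0.00283, where 8.14% of miRNAs tested rose. It fell on day 5 against day 3 (-1.54, SE 0.44, limma adjusted p = 0.0337), a call lost without any 1 of the 4 libraries of those days (adjusted p 0.0867 to 0.144), and with no filter (0.0526), rescaling to a common total (0.0823), quantile normalization (0.122) or array weights (0.157).

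miR-320-3p had 2474 and 1882 normalized counts in ICM, 2237 and 2423 on day 0.5, 3080 and 2816 on day 1, and 3624 and 3684 on day 2. It had 2295 and 2605 on day 3, 2063 and 1470 on day 5, 566 and 532 in ESC P2, 852 and 994 in P4, and 1408 and 1563 in P15. Day 2 was again the highest group without overlap, and ESC P15 reached into the range of day 5. No adjacent step was called for miR-320-3p.

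miR-484 took another course. It had 1273 and 1712 normalized counts in ICM, 1694 and 2303 on day 0.5, 1728 and 1938 on day 1, and 1804 and 1293 on day 2. It had 2833 and 1807 on day 3, 3357 and 3686 on day 5, 947 and 930 in ESC P2, 2180 and 1526 in P4, and 1989 and 1937 in P15. Both day 5 libraries exceeded all others, and ESC P2 was lowest without overlap. Between these ends, groups next to each other in the order of means overlapped. No adjacent step passed the test, day 5 against day 3 giving 0.64 (SE 0.26, limma adjusted p = 0.136). That step was called with libraries rescaled to the same total (0.76, adjusted p = 0.0166) and after quantile normalization (0.82, adjusted p = 0.0271).

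Across the 5 adjacent steps, 4 of 30 combinations of miRNA and step were called, all as lower, where 12% of all combinations were called in either direction. Both miR-877 arms were called on day 3 against day 2, a step at which 1.97% of all miRNAs tested fell. On day 0.5 against ICM, 1 of 6 fell (background 3.33%), and on day 5 against day 3, 1 of 6 fell (background 6.17%). The miR-877-5p call on day 3 was lost without either day 2 library or without the first day 3 library (limma adjusted p 0.0553 to 0.123), with rescaling to a common total (0.0618) and with array weights (0.0568).

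**Figure D3:**
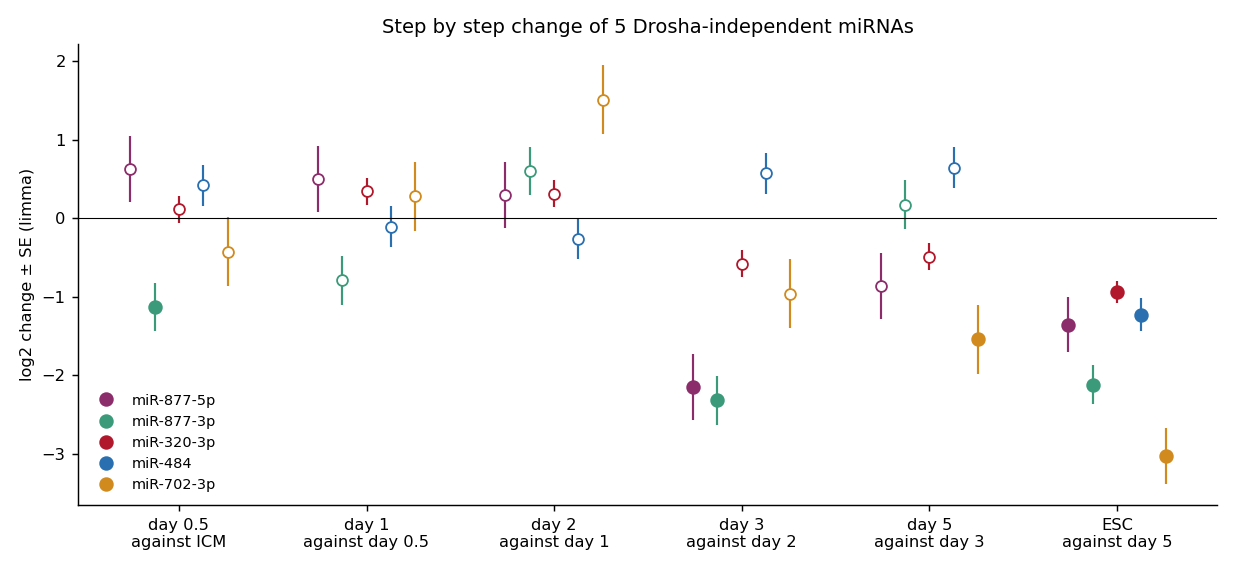
Log2 change with its standard error at each adjacent time step and in ESCs against day 5, for 5 of the 6 miRNAs. Filled points passed limma at adjusted p below 0.05 and open points did not. The 4 filled points among adjacent steps are all below 0, and in ESCs against day 5 all 5 miRNAs are filled and lie between -0.94 and -3.03.

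Over the whole of days 0.5 to 5, the outgrowths were compared with ICM. Only miR-877-3p was called, as lower (1 of 6, against 18.6% of all miRNAs tested). It averaged 240.1 ± 154 normalized counts in outgrowths (SD, n = 10), against 963 ± 354 in ICM, a log2 change of -2.3 (SE 0.24, limma adjusted p = 2.17e-05), and all outgrowth libraries lay below both ICM libraries. With limma array weights the same change had an adjusted p of 0.0568. miR-877-5p (0.17), miR-320-3p (0.24), miR-702-3p (0.01) and miR-484 (0.53, SE 0.20, adjusted p = 0.0628) did not pass. miR-484 did pass without the first day 0.5, the second day 2 or the second day 3 library (0.57 to 0.59, limma adjusted p 0.0269 to 0.0481), after quantile normalization (0.83, adjusted p = 0.00223) and with a filter of 100 normalized counts (adjusted p = 0.0404).

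Days 2 and 3 were also set against ICM, a comparison among shallow libraries only, which still differ in depth. miR-877-3p was lower (-2.48, SE 0.27, limma adjusted p = 2.09e-05; background 20.1% lower) and miR-320-3p was higher (0.47, SE 0.15, adjusted p = 0.0304; background 14.9% higher). The miR-320-3p change was 0.09 and not called with libraries rescaled to a common total (adjusted p = 0.88). Its call was also lost with no filter (0.054), with array weights (0.462), and without the second ICM library, either day 2 library or the second day 3 library (0.0577 to 0.304). miR-702-3p had 396 and 502 normalized counts on day 2 and 221 and 237 on day 3, all above the 152 and 195 in ICM. Its log2 change of 0.89 (SE 0.38) had a limma adjusted p of 0.0956, and of 0.00718 at the common floor (background 18.3% higher).

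The comparison of ESCs with outgrowths called 5 of the 6 as lower, all but miR-1224-5p, where 19.9% of all miRNAs tested fell. The median log2 change was -2.31 over the 6 and 0.28 over all miRNAs tested. miR-702-3p averaged 10.5 ± 7.74 normalized counts in ESCs, against 209.3 ± 140 in outgrowths (-4.18, SE 0.23, limma adjusted p = 3.61e-08, and -2.63 with the floor). miR-877-3p changed by -3.3 (SE 0.16, adjusted p = 1.1e-08 by limma) and by -2.55 with the common floor. These 2 miRNAs had every ESC library below every outgrowth library, as did 2.84% of all miRNAs tested.

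miR-877-5p had a lowest, median and highest value of 87, 129.5 and 321 normalized counts in ESCs, against 278, 1909.5 and 3489 in outgrowths. The groups overlapped only where 1 ESC P4 library exceeded 1 day 5 library, and the log2 change was -3.13 (SE 0.22, limma adjusted p = 3.53e-07). miR-320-3p had 532, 923 and 1563 in ESCs, against 1470, 2514 and 3684 in outgrowths (-1.49, SE 0.09, limma adjusted p = 1.14e-07). miR-484 fell least, with 930, 1731.5 and 2180 in ESCs, against 1293, 1872.5 and 3686 in outgrowths (-0.51, SE 0.13, limma adjusted p = 0.00792), and its groups overlapped broadly.

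Day 5 was the only outgrowth stage in the deeper class with ESCs, though the reads of that class could not be estimated. Its summed fibroblast miRNA share was nearest to that of ESCs, but single arms differed. miR-143-3p was at 619 and 680 on day 5, against 1628 to 2375 in ESCs. In ESCs against the day 5 libraries, 5 of 6 were lower, where 9% of all miRNAs tested fell. The median log2 change was -1.43 against -0.05 for all. The scarce miR-1224-5p (-1.5, SE 1.62) was again a middle value. At the common floor the median was -1.29 over the 6, against 0 for all. miR-702-3p changed by -3.03 (SE 0.36, limma adjusted p = 2e-04, and -1.48 with the floor), miR-877-3p by -2.12 (SE 0.25, adjusted p = 0.000191; -1.38 at the floor). miR-484 changed by -1.23 (SE 0.21, limma adjusted p = 0.00188) and miR-320-3p by -0.94 (SE 0.14, adjusted p = 0.000815). miR-877-5p changed by -1.36 (SE 0.35, adjusted p = 0.0203), and its call was lost without the first day 5 library (-0.84, adjusted p = 0.355) or the second ESC P2 library (-1.27, adjusted p = 0.0502). For miR-877-3p, miR-702-3p and miR-484 every ESC library lay below both day 5 libraries, as for 12.8% of all miRNAs tested. The comparisons with ICM, all outgrowths and day 5 share the ESC libraries.

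Among the 3 ESC groups, 4 of 6 differed (miR-877-3p, miR-320-3p, miR-484 and miR-702-3p, limma adjusted p between 0.000113 and 0.0255), where 27.4% of all miRNAs tested differed. P4 was highest and P2 lowest in group mean for both miR-877 arms, while miR-320-3p was highest in P15, at 1408 and 1563 normalized counts, and lowest in P2, at 566 and 532. P2 had the lowest mean, alone or tied, for 5 miRNAs. P2 also had the highest share of primed epiblast miRNAs, given above, and of blood miRNAs, at 0.206% and 0.233%, against 0.0641% to 0.145% in P4 and P15, and the part of these shares was not tested. At the common floor miR-877-5p was called (limma adjusted p = 0.0354), where 50.5% of miRNAs tested differed, while miR-877-3p (adjusted p = 0.12) and miR-702-3p were not. The floor, set from the shallow libraries, made all ESC values of miR-702-3p (4 to 24) equal. It also made the P2 values (7 and 5) and P15 values (26 and 21) of miR-877-3p equal. These lost calls therefore do not show whether the ESC groups differ in miR-877-3p or miR-702-3p. With libraries rescaled to the same total only 1 of 6 was called, a setting in which the share of all miRNAs called was not counted. miR-484 lost its call without either P2 library (adjusted p 0.0942 and 0.104), and miR-702-3p without the first P2 or the second P4 library (0.0518 and 0.213).

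The arms of miR-877 are cut from the same hairpin, so their ratio does not depend on how libraries are scaled. Dicer leaves a duplex of both arms, of which usually only one is kept in an Argonaute protein. The ratio of 5p to 3p counts was 1.27 and 1.34 in ICM, 4.98 and 3.98 on day 0.5, 14.9 and 7.93 on day 1, and 8.25 and 9.28 on day 2. It was 6.56 and 15.1 on day 3, 7.55 and 3.09 on day 5, 17.9 and 17.4 in ESC P2, 5.69 and 8.03 in P4, and 5.12 and 6.0 in P15. Both ICM libraries were below all others, an order that was not counted over other hairpins. They had nearly as many 3p as 5p counts, while in every later library the 5p arm led by 3.09-fold or more.

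The log2 ratio was higher in ESCs than in ICM by 2.64 (SE 0.49, limma adjusted p = 0.00137, and 1.9 with the floor), a comparison in which 21.8% of the 193 hairpins with both arms tested shifted toward 5p. In outgrowths it was higher than in ICM by 2.47 (SE 0.47, adjusted p = 0.00504), where 5.18% of hairpins shifted toward 5p. A higher change, called or not, was found in 28% of hairpins in ESCs and 18.7% in outgrowths, each against ICM (21.7% and 2.33% at the floor). On day 0.5 against ICM the ratio changed by 1.77 (SE 0.6, limma adjusted p = 0.152), and was called at the common floor (adjusted p = 0.0467). ESCs and outgrowths differed by 0.17 (SE 0.31, adjusted p = 0.694), and by -0.57 at the common floor (SE 0.25, adjusted p = 0.0628). In outgrowths, then, the 3p arm had fallen against ICM while the 5p change of 0.17 (95% interval -0.56 to 0.89) did not pass, and in ESCs both arms were below ICM.

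**Figure D4:**
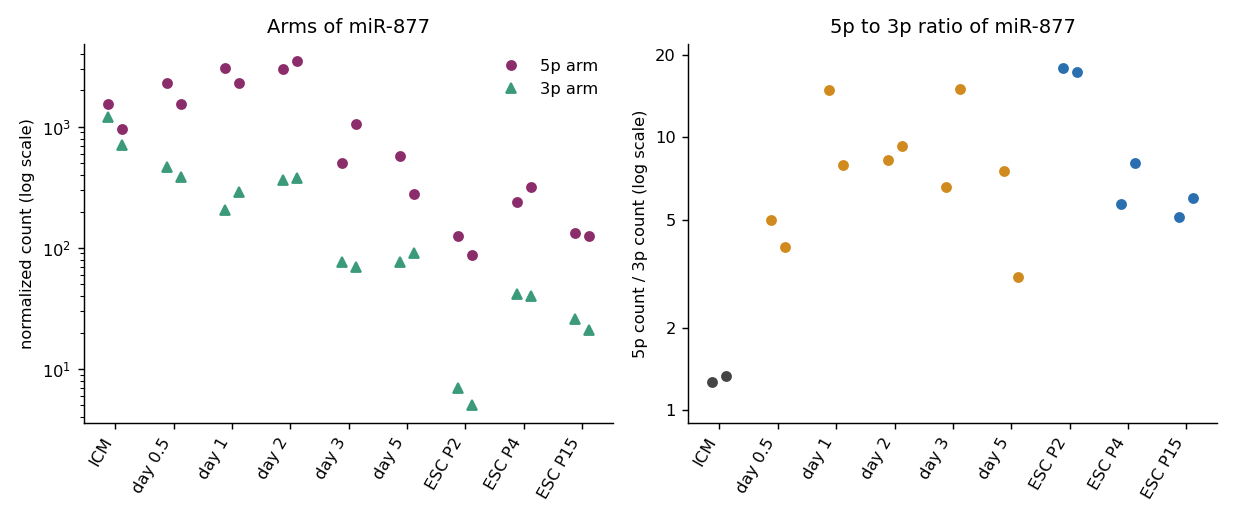
Normalized counts of the 5p and 3p arms of miR-877 on a log axis (left) and their ratio on a log axis (right) in every library of ICM, outgrowths and ESCs. The ratio is between 3.09 and 17.9 in all outgrowth and ESC libraries, against 1.27 and 1.34 in ICM.

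The partner arms of the other hairpins were scarce. miR-320-5p was listed in 1 library, at 1 normalized count, and miR-1224-3p in 1 library, at 21. miR-702-5p reached 31 and 35 on day 0.5 and 30 in 1 day 1 library, and was 0 in both ICM libraries and at most 9 from day 5 on. On day 0.5 against ICM it was called as higher (log2 change 5.08, SE 1.27, limma adjusted p = 0.0226), as were 8.01% of all miRNAs tested. At the common floor its change was 0.27 (limma adjusted p = 0.00733), where 64 of 602 miRNAs tested rose. miR-1224-5p was above 0 in 8 of 18 libraries, at 43 in 1 ICM library, 45 in 1 day 2 library (13 reads), 13 in 1 day 3 library (7 reads), 5 in both day 5 libraries and 2 to 5 in 3 ESC libraries. In ICM and on days 2 and 3, 1 replicate of each pair was at 0 and the other was not, and no comparison called it.

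Over the 18 libraries, 4 of the 6 had the most similar profiles. At the common floor, the Pearson r was 0.877 between miR-877-5p and miR-702-3p, 0.874 between miR-877-5p and miR-320-3p, 0.863 between miR-320-3p and miR-702-3p, and 0.856 between the arms of miR-877. The other pairs were lower, at 0.767 between miR-877-3p and miR-702-3p and 0.714 between miR-877-3p and miR-320-3p. miR-484 gave r of -0.00752 to 0.338 with the other 4. These values describe libraries that share stage and depth, and carry no test.

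Among 280 miRNAs with a mean of at least 100 normalized counts, the profile most like miR-877-5p was that of miR-423-5p (r = 0.957), followed by let-7d-5p (0.917) and miR-6412 (0.908). The nearest to miR-877-3p were miR-1249-3p (0.952), miR-423-3p (0.933) and let-7d-3p (0.919). Both arms of miR-877 thus had an arm of miR-423 and of let-7d of the same side among their nearest 3. miR-320-3p was nearest to miR-351-5p (0.913), miR-7091-5p (0.913) and miR-328-3p (0.91), and miR-702-3p to miR-351-5p (0.945), miR-877-5p (0.877) and miR-10b-5p (0.871), the last a member of the fibroblast list. The nearest to miR-484 were less alike: miR-92b-3p (0.733), miR-7115-5p (0.713) and miR-92a-3p (0.68).

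Further mouse miRNAs described as made without Drosha or Dgcr8 were counted alongside. From a list of mirtron-like miR-1981, miR-1982, miR-668 and miR-3102 and snoRNA-like miR-1839 and miR-664, 13 arms were in the table and 8 were tested. In ESCs against ICM, 3 of 8 were higher, near the 31.6% of all miRNAs tested that rose, and none was lower. The median log2 change of the 8 was 0.16. miR-668-3p, which lies in the imprinted Dlk1-Dio3 region, rose by 3.6 (SE 0.43, limma adjusted p = 2.46e-05), with 3383 and 2967 normalized counts in ESC P4 but 87 to 180 in the other ESC groups. miR-1981-3p was 0 in both ICM libraries and 35 to 77 in ESCs (0.82 at the common floor, limma adjusted p = 0.00747). miR-1839-5p had 56 to 184 in ESCs, against 0 and 22 in ICM (1.84 at the common floor, adjusted p = 3.81e-05). At the floor 6 arms were tested, of which 3 were higher (background 35.9%) and 1, miR-664-5p, was lower (-0.85, adjusted p = 0.000678, background 32.2%).

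In outgrowths against ICM, 4 of the 8 arms were higher (background 16.3%) and none was lower, among them miR-1981-5p (1.61, SE 0.27, limma adjusted p = 0.000703). miR-664-5p was lower when values were raised to the floor (-0.52, adjusted p = 0.0171). miR-1981-5p fell in ESCs against outgrowths (-1.57, SE 0.18, adjusted p = 2.06e-05). miR-668-3p was called as higher in ESCs than in outgrowths (1.19, SE 0.27, adjusted p = 0.00361), as were 31.9% of all miRNAs tested. Its outgrowth libraries had 24 to 432 normalized counts, with 260 to 432 on days 2, 3 and 5, so that ESC P4 lay above all of them while P2 and P15 lay below all libraries of days 2, 3 and 5. miR-1981-3p was called as higher by 0.68 (adjusted p = 0.0401), but at the common floor its change was -0.29 and not called (adjusted p = 0.103).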

How the data were processed

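Small RNA of the 18 samples was sequenced after TruSeq Small RNA library preparation, per the labels' protocols. The deposited score for each miRNA is a normalized count that the authors rounded. Cutadapt, DESeq2 1.30.0 and the mm10 genome are named in the submitters' processing notes, while aligner, counting and annotation were not given in the sources used here.

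Values were tested as log2(normalized count + 1). The filter, a value of 10 or more in 2 or more libraries, left 811 miRNAs, all 6 described here included. With trend and robust options, limma 3.58.1 (R 4.3.3) fitted the means of all 9 groups together (9 residual degrees of freedom), and p-values were adjusted by Benjamini-Hochberg over all miRNAs tested, with a threshold of 0.05. Changes are on the scale with 1 added. Arm ratios used the same model over 193 hairpins. The common floor of 27.2 left 602 miRNAs. Read spacing was accepted where values below 1000 fell on it within 0.5. The test was also run on simulated data whose groups outside ESCs shared their means and whose replicates had a fixed spread. That spread was not taken from these libraries, so the run does not show how the test behaves on them. Alternatives were other pseudocounts, filters and scalings, library weights, a replicate block and each library left out.

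All 6 miRNAs, the other arms of their hairpins and a list of further miRNAs from general knowledge are named, and for each of the 6 with a mean of at least 100 the 3 nearest by Pearson r. The miRNAs and lists were chosen with earlier results of these data known. Marker names of older annotations were matched after the table was seen. Replicate libraries differed by more than sampling noise. No sample column was left out.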

Additional observations from a re-analysis of the deposited data

Results flagged for a closer look

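miR-1224-5p stood at 45 normalized counts in the second day 2 library, the highest of 10 outgrowth libraries, of which 6 were at 0. The gap to the next value, 13, was 0.711 of the whole range, more than Dixon's test allows at 95% for 10 samples. The test marks about 1 in 20 groups of like samples by chance, a rate that need not hold here, with stages pooled and many values at 0. It was made for each of the 6 miRNAs in ESCs and in outgrowths. The marked value rests on 13 estimated reads.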

How the results depend on the processing

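Over 27 alternatives, ESCs against ICM called 4 or 5 of the 6 miRNAs, ESCs against outgrowths 5, ESCs against day 5 4 or 5, and all groups 5. Outgrowths against ICM (1 called) gave 2 with a filter of 100 and with quantile normalization, 0 with array weights, and 1 to 2 with a library left out. Days 2 and 3 against ICM (2 called) gave 1 with no filter, rescaling or array weights, 3 at most elsewhere, and 1 to 2 with a library left out. Adjacent steps (4 called) gave 2 with no filter, 1 with array weights, 6 at the common floor, and 2 to 5 with a library left out. ESC groups (4 called) gave 1 with rescaling, 5 at most elsewhere, and 2 to 5 with a library left out. For ESC groups, the share of all miRNAs called was counted only in the main test and at the common floor. The arm ratio in ESCs against outgrowths turned to -0.57 at the floor and -0.32 with a pseudocount of 10. Rescaling to the same total turned miR-484 in ESCs against ICM (-0.69), miR-877-5p (-0.1), miR-320-3p (-0.03) and miR-702-3p (-0.26) in outgrowths against ICM, and miR-877-5p (-0.04) and miR-484 (-0.05) on days 2 and 3. Quantile normalization turned miR-1224-5p on days 2 and 3 (0.14). With 1 library left out, signs changed for miR-484 in ESCs against ICM (-0.19 to 0.23), in outgrowths against ICM for miR-877-5p (-0.18 to 0.52) and miR-702-3p (-0.16 to 0.19), and on days 2 and 3 for miR-877-5p (0 to 0.69). miR-1224-5p changed sign in ESCs against ICM (-4.38 to 1.08), outgrowths against ICM (-4.01 to 1.45), ESCs against outgrowths (-0.92 to 0.18) and on days 2 and 3 (-3.13 to 2.33), and has no value under the filter of 100. Other than the rescaling shift and the values raised by the floor, the cause was not tested. A lone library left in a group was assumed to vary like the others.

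Replicate numbers did not pair the libraries: over 36 pairs of groups, deviations of same-numbered libraries correlated at -0.362 to 0.245, with 3 above 0.1. A replicate block called 4, 1, 5, 2, 5, 4, 4 and 5 in the 8 counts (ESCs against ICM, outgrowths against ICM, ESCs against outgrowths, days 2 and 3, day 5, steps, ESC groups, all groups), as without it, and gave arm ratio changes of 2.64, 2.47 and 0.17. A value of 27.2 normalized counts rests on 5 reads in the shallowest library and on more in the others, and low values limit miR-1224-5p and the size of the falls of miR-877-3p and miR-702-3p.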
